A study of Saccharomyces cerevisiae with 57 samples.

Results

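The Abf1 minute-scale digestion course consists of 4 of the 57 libraries of the series, taken from an ABF1-3FLAG-MNase-kanMX6 strain 2.5, 5, 10 and 20 min after calcium was added. They were chosen by their labels: Abf1 ChEC-seq, a minute-scale digestion and 1 shared run code. In ChEC-seq, a transcription factor (TF) is fused at its own locus to micrococcal nuclease (MNase), which cuts DNA only with calcium, so the ends of the recovered fragments mark where the fusion cut. All strains used here were W1588-4C, which is congenic to W303-1A but RAD5+, and the cells of the ChEC-seq libraries were permeabilized with digitonin. By the protocol, aliquots of a digest of 1 culture were stopped at the stated times and small DNA was selected, so the 4 times were not treated as separate cultures, and each time is 1 library. That of 2.5 min is labelled replicate 1, and any other replicate at that time was not analysed here. The other libraries used were Abf1 without calcium, the Abf1 strain digested for 30 s (3 replicates), RAP1-3FLAG-MNase-kanMX6 at the same 4 times, Abf1 MNase-X-ChIP-seq (crosslinked chromatin cut with MNase and immunoprecipitated), and free MNase at the same 4 times, which is a strain with ura3::PREB1-3FLAG-MNase-NLS-URA3, that is, MNase with a nuclear localization signal driven by the REB1 promoter. The label of the MNase-X-ChIP-seq library gives the genotype of the Abf1 ChEC-seq strain, while the strain list of the study also holds ABF1-3FLAG-kanMX4, without MNase, so which of them it came from is unsure. The Abf1 minutes, the Abf1 library without calcium and the Rap1 minutes carry 1 run code, while the free MNase minutes and the 30 s libraries carry others, so in comparisons with these the run cannot be told apart from the strain or the time.

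Abf1 is a general regulatory factor of budding yeast. It binds a bipartite sequence with fixed outer letters and a variable spacer, sits at many promoters and at replication origins, and is associated with nucleosome-depleted DNA at the promoters it binds. Among its targets are genes for ribosome production, mitochondrial respiration, the proteasome and meiosis. Rap1, another general regulatory factor, is best known at ribosomal protein and glycolytic genes and at telomeres.

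The quantity reported is the number of fragment ends in a window in parts per 1000000 (ppm) of the ends of that library that lay in the nuclear genome outside the ribosomal DNA (rDNA). A promoter was the 500 bp upstream of the start codon of each of 5894 protein-coding genes (sacCer3), a 3′ region the 200 bp downstream of the stop codon. The 4 libraries held 7426680, 6516116, 9993809 and 13245994 such ends at 2.5, 5, 10 and 20 min. A change is the difference between 20 and 2.5 min in log2(ppm + 1), and a promoter is said to have lost or gained when that difference reached 1.5-fold. With 1 library per time in what was analysed here, no p value can be given. Intervals in brackets are exact 95% intervals for counting error only, and the spread among the 3 replicates at 30 s is the measure of variation between libraries used here. The median over promoters of the largest difference between any pair of these replicates was 0.41 on the log2 scale. Because ppm is a share, a window can lose ppm while the number of cuts in it rises.

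The 12 promoters with the largest falls that moved the same way at every step, more than 10 kb from a chromosome end, held an Abf1 consensus match in 8 cases, and 0 of the 12 with the largest rises did. Of all promoters 18.1% held a match. At that share few of 12 promoters would hold one, so the 0 is not read as a result about the rises. One match of each of the 8 is shown, each read on the strand of the match with 10 bases on each side and the match in capitals. These promoters were picked by their loss of ends in the same libraries. Losses around their matches are therefore descriptions and no separate evidence of a link between match and loss.
SPT8, chrXII:253372-253404: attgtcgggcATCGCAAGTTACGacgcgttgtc
PHM8, chrV:225507-225539: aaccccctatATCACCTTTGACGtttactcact
YIL054W, chrIX:254310-254342: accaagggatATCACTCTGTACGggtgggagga
TDA9, chrXIII:104321-104353: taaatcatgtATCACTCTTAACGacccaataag
PNC1, chrVII:428336-428368: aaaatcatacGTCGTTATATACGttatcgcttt
PLS1, chrXIV:441146-441178: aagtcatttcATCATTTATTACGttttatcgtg
RPL13B, chrXIII:551482-551514: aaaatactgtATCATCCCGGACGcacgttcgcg
FBA1, chrXI:327955-327987: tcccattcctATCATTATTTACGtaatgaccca

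The match shown for SPT8 was 1 of 3 in its window and that for PNC1 1 of 4, in both cases the one with the largest fall. All 8 lay outside annotated genes, between 211 and 478 bp upstream of the start codon. Within 50 bp of the SPT8 match shown, the level fell from 131 ppm at 2.5 min to 50.5, 16.8 and 6.57 ppm at 5, 10 and 20 min. Around the match of TDA9 it fell from 174 to 106, 50.7 and 23.3 ppm, and around that of PLS1 from 78.4 to 26.9, 10.4 and 5.81 ppm. Free MNase gave 5.38 and 9.12 ppm around the same SPT8 match at 2.5 and 20 min, and Abf1 had 6.57 ppm there at 20 min. Of the 8 matches shown, the Abf1 level at 20 min was below that of free MNase at SPT8, PNC1, PLS1 and FBA1 and above it at PHM8, YIL054W, TDA9 and RPL13B. REC8, the gene of the meiotic cohesin subunit, was 1 of the 12 largest rises, and its 500-bp window held no consensus match. That window held 1 match to a shorter Abf1 core, 419 bp upstream of the start codon. The core keeps the fixed letters of both ends but needs an A where the consensus takes A or G. The last 200 bases before the start codon of REC8 are shown on the strand of the gene. They held no match, but all 8 matches shown above lay further upstream than 200 bp, so this is no contrast with the falls.
REC8, chrXVI:571379-571578, minus strand: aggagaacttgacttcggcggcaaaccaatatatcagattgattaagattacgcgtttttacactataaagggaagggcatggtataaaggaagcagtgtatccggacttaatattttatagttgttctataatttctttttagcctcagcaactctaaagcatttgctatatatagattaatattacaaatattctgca

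Over all 1015 consensus matches outside genes, the share of ends next to the match fell at each step. The bases within 50 bp of a match make up 0.909% of the nuclear genome and took 8.77% of the ends at 2.5 min, 5.62% at 5 min, 3.77% at 10 min and 2.61% at 20 min. At 30 s the 3 replicates had 17.2%, 14.6% and 16.7%, all above every library of the minute course. Free MNase rose from 1.73% at 2.5 min to 2.43% at 20 min, and the Abf1 library without calcium had 1.32%. Of the 1015 matches, 908 (89.5%) lost at least 1.5-fold within 50 bp and 24 (2.36%) gained, with a median log2 change of -1.64. The size of the fall differed between bands of distance. In the first 25 bp on either side the mean density per match fell from 1189 ppm per kb at 2.5 min to 256 at 20 min, between 26 and 50 bp from 593 to 257, between 51 and 100 bp from 259 to 175 and beyond 100 and up to 200 bp from 281 to 126, so the fall did not fade steadily with distance. Inside the match itself the density was 145 ppm per kb at 2.5 min and 74.8 at 20 min, below the adjoining bases at both times. Free MNase at 20 min had 240 ppm per kb in the first 25 bp, 245 between 26 and 50 bp and 37.0 inside the match.

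**Figure D1:**
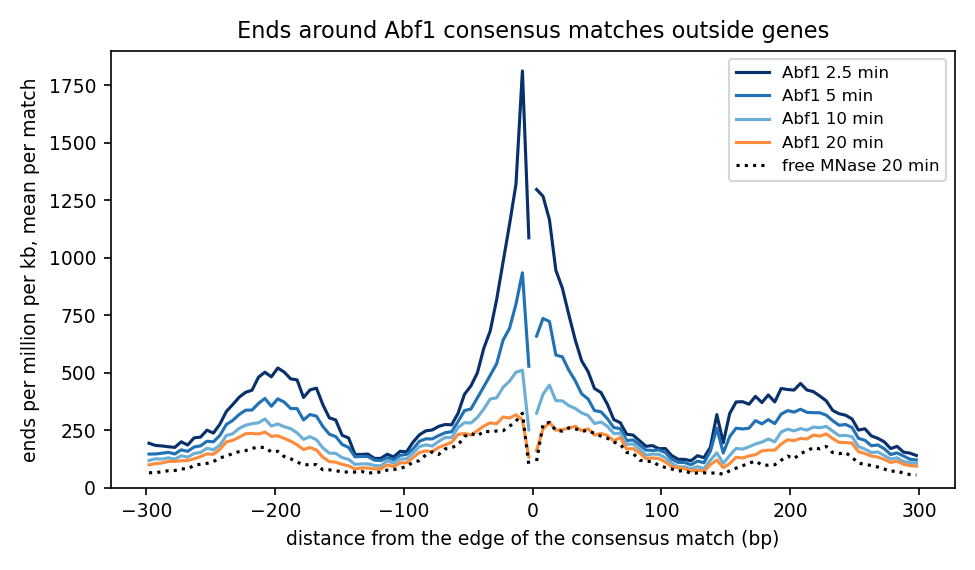
Mean density of fragment ends (ppm per kb per match, 5-bp bins) against the distance in bp from the edge of 1015 Abf1 consensus matches outside genes, negative before the match and positive after it, with 1 line per library; bases of the match are left out. The line of 2.5 min stands highest next to the match, and the lines fall in order of time until that of 20 min lies close to free MNase at 20 min (256 and 240 ppm per kb in the first 25 bp).

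Levels were lower around the 760 matches inside annotated genes. The median level within 50 bp was 7.81 ppm at 2.5 min and 9.06 ppm at 20 min, against 80.8 and 24.9 ppm outside genes, and 236 (31.1%) lost while 239 (31.4%) gained.

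The promoter share of all ends fell at each step. With coding bases assigned first, promoters held 43.2%, 40.1%, 35.4% and 30.6% of the ends at 2.5, 5, 10 and 20 min, a fall of 12.6 percentage points. Coding sequence held 33.1%, 36.8%, 43.0% and 49.4%, a rise of 16.3 points. The 3′ regions stayed between 5.5% and 5.9%, and the remaining bases fell from 18.2% to 14.2%. At 30 s promoters held 47.0%, 44.5% and 48.0% in the 3 replicates. The difference between 2.5 and 20 min was larger than the range among those replicates, and all 3 lay above the library of 2.5 min. Without calcium, promoters held 18.3% and coding sequence 66.7%, and the 4 libraries of the course lay between these values and those at 30 s. Per kb, promoters went from 227 to 161 ppm and coding sequence from 38.7 to 57.8 ppm.

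The Rap1 course moved the same way and the free MNase course did not. In Rap1 the promoter share fell from 43.7% to 35.4% and the coding share rose from 28.0% to 43.4%. In free MNase the promoter share rose from 24.0% to 28.2% and the coding share went from 55.2% to 53.4%.

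**Figure D2:**
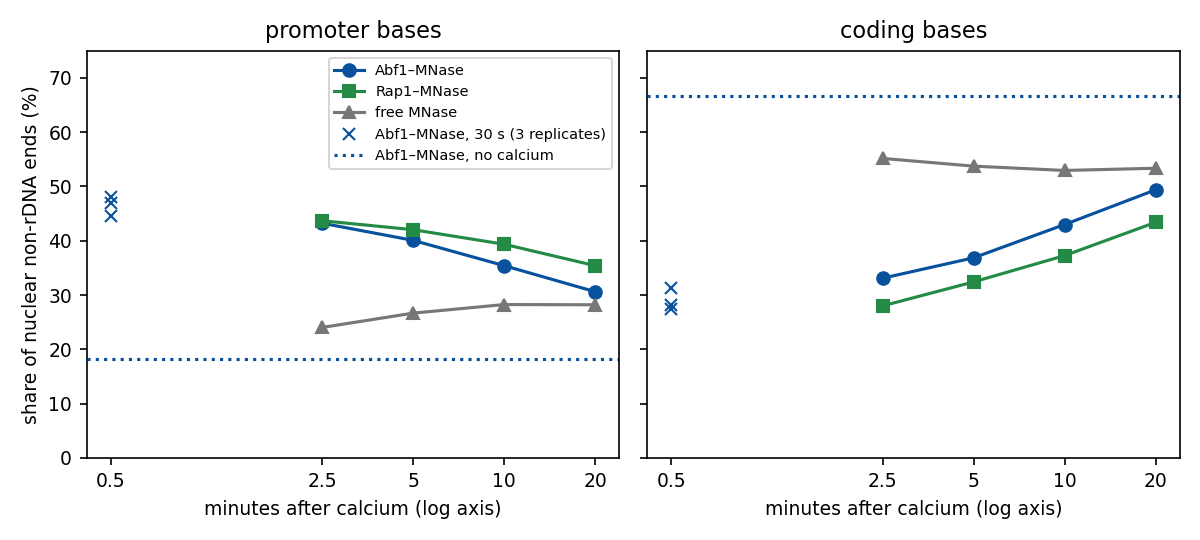
Share of nuclear ends outside rDNA in promoter bases (left) and coding bases (right), in percent, against minutes after calcium on a log axis, with 1 point per library; crosses are the 3 Abf1 replicates at 30 s and the dotted line is Abf1 without calcium. Abf1 promoters fall from 43.2% to 30.6% and coding bases rise from 33.1% to 49.4%, while free MNase promoters rise from 24.0% to 28.2%.

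Around start codons, the loss lay upstream. Between 160 and 180 bp upstream of the start codon the mean density over genes was 282, 252, 219 and 184 ppm per kb at the 4 times, and 106 without calcium. In the first bins of the gene body the order turned: the density at 90 bp into the gene rose from 123 to 141 ppm per kb and at 250 bp from 81.8 to 107. Without calcium the densities at these distances were 119 and 107 ppm per kb. Downstream of stop codons the densities stayed close, with 138 ppm per kb at 2.5 min and 127 at 20 min at 150 bp.

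**Figure D3:**
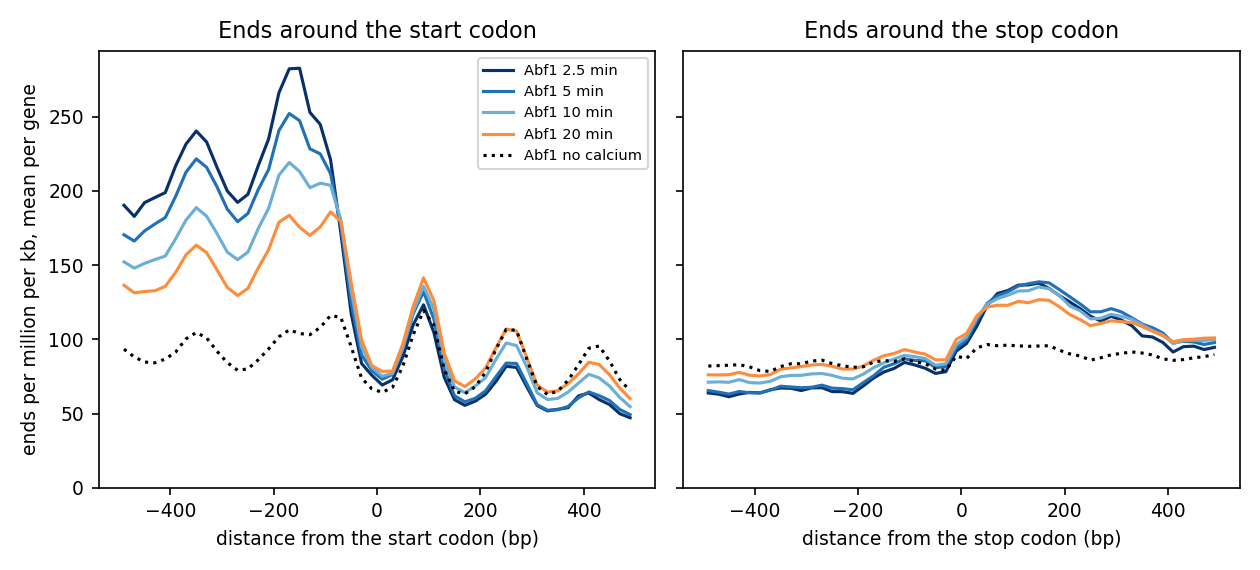
Mean density of ends (ppm per kb per gene, 20-bp bins) against the distance in bp from the start codon (left) and stop codon (right), negative upstream, with 1 line per Abf1 library and a dotted line for Abf1 without calcium. Upstream of the start codon the lines fall in order of time, from 282 to 184 ppm per kb at 170 bp, and within the gene they rise.

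Promoters both lost and gained. Of the 5865 promoters with a mean of at least 10 ppm over the 4 libraries, 1775 (30.3%) lost and 1582 (27.0%) gained at least 1.5-fold. The remaining 29 were below that level. With identical fragments counted once, 1955 lost and 1125 gained. Neighbouring genes can share a window, and with windows that share at least 250 bp taken as 1 the losing promoters formed 1441 regions and the gaining ones 1421. The median change over all promoters was 0.07. Of the losing promoters 1638 (92.3%) fell at each of the 3 steps, and of the gaining ones 1325 (83.8%) rose at each. The losing promoters had median steps of -0.37, -0.39 and -0.37, that is, a nearly constant fall with each doubling of time, whereas the rises slowed from 0.45 to 0.29 and 0.17. The change was larger than the promoter's own largest difference among the 30 s replicates in 1741 of the losing and 1323 of the gaining promoters. As both sets were picked by their change, these counts are descriptions. At a limit of 2-fold 960 (16.4%) lost and 541 (9.22%) gained. The members nearest the limits had changes of -0.59 and 0.59 on the log2 scale on either side of them.

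The levels of promoters drew together over the course. The losing promoters went from a median of 187 ppm to 154, 116 and 86.2 ppm, and the gaining promoters from 27.8 ppm to 38.1, 46.8 and 52.4 ppm. Without calcium the medians of the same sets were 47.4 and 44.9 ppm. The 90th percentile of promoter levels was 9.70 times the 10th at 2.5 min, 5.74 times at 5 min, 3.58 times at 10 min and 2.49 times at 20 min. In Rap1 the same ratio fell from 21.4 to 4.34, in free MNase it lay between 2.15 and 2.38 at all 4 times, and in Abf1 without calcium it was 1.47. Across the 5865 promoters, Spearman's rho between the Abf1 minute libraries and the mean of the 30 s replicates was 0.96, 0.89, 0.81 and 0.69, and with the library without calcium 0.31, 0.37, 0.44 and 0.53. These are descriptions across promoters, which share base composition and mappability and are not independent replicates.

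Promoters were also ordered by their level at 30 s, in libraries that do not enter the change. That level had a Spearman's rho of 0.96 with the level at 2.5 min, which does enter it. The order is thus close to an order by the 2.5 min level, and the trend over it is a description, not a separate prediction. From the lowest to the highest decile of the 30 s level the median log2 changes were 1.11, 0.82, 0.64, 0.44, 0.21, -0.05, -0.39, -0.75, -0.98 and -1.47. In the highest decile all 587 promoters lost, against 30.3% of all promoters, and none of the 2933 in the lowest 5 deciles did. In the lowest decile 573 of 587 (97.6%) gained, against 27.0% of all. The share of promoters with an Abf1 consensus match went from 1.36% in the lowest to 69.0% in the highest decile. The highest decile fell from a median of 285 to 99.2 ppm and the lowest rose from 18.4 to 39.9 ppm. In free MNase the same deciles had median changes between 0.24 and 0.32, with no order. In Rap1 they ran from 1.26 in the lowest to 0.11 in the highest decile. Ordered by Abf1 MNase-X-ChIP-seq instead, the lowest decile had a median change of 0.39 and the highest -0.70.

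**Figure D4:**
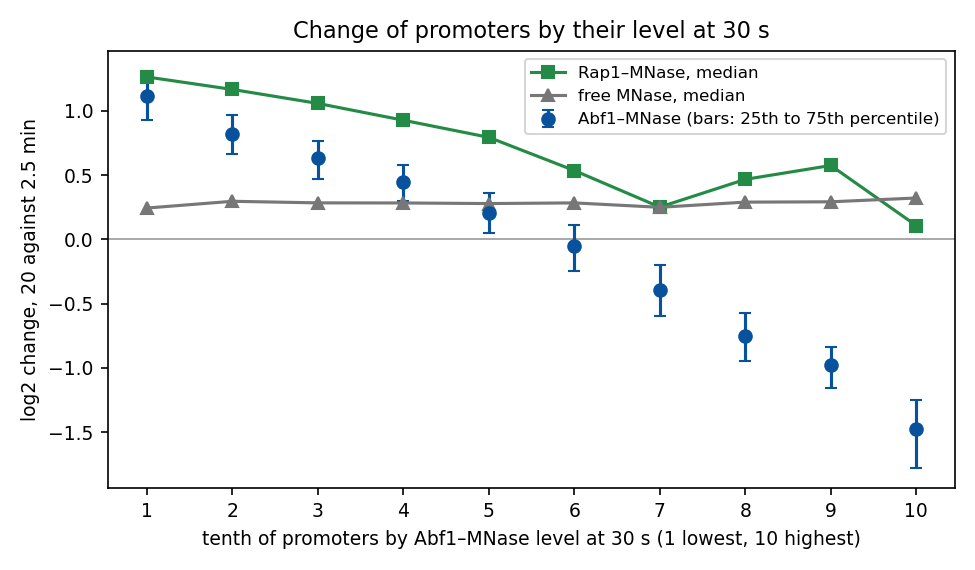
Median log2 change from 2.5 to 20 min (vertical axis) of promoters in deciles of the mean Abf1 level at 30 s (horizontal axis, 1 lowest, 10 highest; about 587 promoters each); bars span the 25th to 75th percentile for Abf1, and lines give the medians of the same promoters in Rap1 and free MNase. Abf1 falls from 1.11 to -1.47 across the deciles while free MNase stays between 0.24 and 0.32.

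Of the sequence features, the Abf1 consensus stood out. It was present in 18.1% of promoters (either strand). Of the 1068 tested promoters that held it 919 (86.0%) lost and 26 (2.43%) gained, with a median change of -0.997, against 17.8% and 32.4% and a median of 0.27 in the 4797 without it. More matches went with larger falls: the median was -0.96 with 1 match, -1.34 with 2 and -1.99 with 3 or more (15 promoters, all of which lost). Among promoters with 1 match, the median change ran from -0.80 with the match within 100 bp of the start codon to -1.13 between 400 and 500 bp. The shorter Abf1 core was present in 22.8% of promoters and overlaps the consensus. It keeps the fixed letters of both ends but needs an A where the consensus takes A or G, so either can occur without the other. Promoters with the core had a median of -0.82. In the 497 promoters that held it without the consensus the median was 0.25, close to that of promoters with neither (0.28). For the Reb1 letters TTACCCG (10.2% of promoters) 32.5% lost and 7.45% gained. For the Rap1 letters ACACCCA (4.38%) 39.9% lost and 20.5% gained. The runs AAAAAAAA, CGCG and TATAAA (44.6%, 42.5% and 60.0% of promoters) had medians between -0.02 and 0.08 where present. A match is a description of the letters in the window, not of binding.

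Position and composition also differed. Windows wholly outside genes had a median change of -0.30, with 40.7% losing, and windows with under 250 bp outside genes had 0.61, with 51.3% gaining. Divergent promoters lost in 34.6% and tandem ones in 25.5%. Of the promoters in the lowest quintile of AT content 43.6% lost, and of those in the highest 25.02%. The Spearman correlation of the change with AT content was 0.16 and that with the 30 s level -0.96, across promoters.

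Of the 1775 losing promoters, 856 had no consensus match and 573 had none of the 4 searched sequences of Abf1, Reb1 and Rap1. These falls without a match were often shared with Rap1: 52.5% of the losing promoters without the consensus lost in the Rap1 course too, against 13.5% of those with it, where 15.1% of all promoters lost in Rap1. In free MNase 1.48% of all promoters lost, and 3.21% of those that lost in Abf1. Of the promoters that gained in Abf1, 85.1% also gained in Rap1, where 59.3% of all promoters gained, and 8.22% in free MNase, where 9.60% of all did. Taken from the Rap1 side, 64.7% of the promoters that lost in Rap1 had lost in Abf1 and 38.7% of those that gained had gained. The median Rap1 change was 0.18 in the losing and 1.21 in the gaining promoters, and the median free MNase change 0.29 and 0.26.

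The promoter with the largest fall belonged to SPT8 (YLR055C, chrXII:253081-253580), which encodes a subunit of the SAGA coactivator complex and diverges from ERG3. It had 318, 164, 89.0 and 48.4 ppm at the 4 times, a 6.57-fold fall in ppm with no pseudocount (6.02 to 7.18), from 869, 510 and 797 ppm at 30 s. It lost close to a constant factor with each doubling of time, and ended near its 38.2 ppm without calcium. In free MNase it had 32.5 and 42.6 ppm at 2.5 and 20 min, and in Rap1 162 and 149 ppm. PHM8, a nucleotidase gene that shares its window with ARB1, had 302, 185, 93.9 and 53.2 ppm. The pair YIL054W and YIL055C had 342, 192, 104 and 62.0 ppm. The pair of TDA9 and ATP18, the latter a subunit gene of the mitochondrial ATP synthase, had 404, 258, 130 and 74.5 ppm. PNC1, which encodes the nicotinamidase, had 294, 153, 82.6 and 55.0 ppm and 4 matches in its window, and its 30 s replicates spread from 515 to 1330 ppm. PLS1 had 259, 127, 75.8 and 50.0 ppm.

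The other 6 include ribosomal protein and glycolytic genes. Of the 12 falls 10 were also lost in Rap1, where 15.1% of all promoters and 32.3% of those that lost in Abf1 did. PGK1, the phosphoglycerate kinase gene of glycolysis, had 377, 214, 129 and 74.2 ppm in Abf1 and fell in Rap1 from 982 to 86.5 ppm, without a consensus match. FBA1, the aldolase gene, had 379, 266, 146 and 73.6 ppm in Abf1 and went from 769 to 109 ppm in Rap1. The ribosomal protein gene RPS7A had 237, 137, 85.4 and 44.2 ppm in Abf1 and 467 and 75.7 ppm in Rap1 at 2.5 and 20 min. RPL13B, which shares its window with RPS16A, had 285, 200.6, 115 and 55.1 ppm. RPS27B, which shares its window with ECM12, had 246, 158, 91.0 and 47.5 ppm. VHR2 had 307, 195, 102 and 58.1 ppm. In free MNase 3 of the 12 fell at least 1.5-fold too, where 1.48% of all promoters did. These were PGK1, from 347 to 153 ppm, FBA1, from 176 to 115 ppm, and PNC1, from 217 to 128 ppm. All 12 falls were larger than the largest difference among the 30 s replicates of the same promoter. They were picked for their size, and 1741 of the 1775 losing promoters passed the same comparison, so this is a description. The 12 levels at 20 min lay between 44.2 and 74.5 ppm, after 237 to 404 ppm at 2.5 min. None of the 12 had gone below its own level without calcium by 20 min. This is not particular to them, as the losing promoters had medians of 86.2 ppm at 20 min and 47.4 ppm without calcium.

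The 12 largest rises started low. They had 3.10 to 11.2 ppm at 2.5 min and 19.2 to 43.4 ppm at 20 min, and all 12 were then still below their own level without calcium (37.8 to 64.2 ppm). The share of all promoters below that level is not given here, so this is not read as a trait of the 12. All promoters had medians of 71.3 ppm at 20 min and 46.2 ppm without calcium. In the lowest decile of the 30 s level these were 39.9 and 42.9 ppm. REC8 (YPR007C, chrXVI:571379-571878) had 9.02, 16.7, 26.6 and 40.1 ppm, a 4.44-fold rise (3.44 to 5.82), after 4.63, 3.92 and 4.40 ppm at 30 s. Its levels at 30 s, in libraries of another run code, lay below every level of the minute course. This is not particular to REC8, as the lowest decile of the 30 s level had medians of 9.19 ppm at 30 s and 18.4 ppm at 2.5 min. FLO11, a cell-surface flocculin gene, had 4.71, 7.37, 10.9 and 19.2 ppm. UAF30, which encodes a subunit of the upstream activation factor of RNA polymerase I, had 7.41, 12.3, 21.8 and 27.6 ppm. TPP1, a DNA 3′-phosphatase gene, had 9.43, 16.3, 22.9 and 33.3 ppm. YFR054C had the largest rise, from 23 ends at 2.5 min to 292 at 20 min, or 3.10, 6.14, 10.2 and 22.0 ppm, a ratio of 7.12 (4.65 to 11.4). The other 7 were YNR068C, YOL024W, YAL063C-A, YNL019C, YOR011W-A, TDA8 and YGR273C, most of them uncharacterized, with ratios between 3.599 and 4.92. In free MNase the changes of the 12 lay between -0.56 and 0.17, so none passed 1.5-fold, where 9.60% of all promoters gained. In Rap1 all 12 rose, by 1.03 to 2.15 on the log2 scale. There 59.3% of all promoters and 85.1% of those that gained in Abf1 gained at least 1.5-fold.

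**Figure D5:**
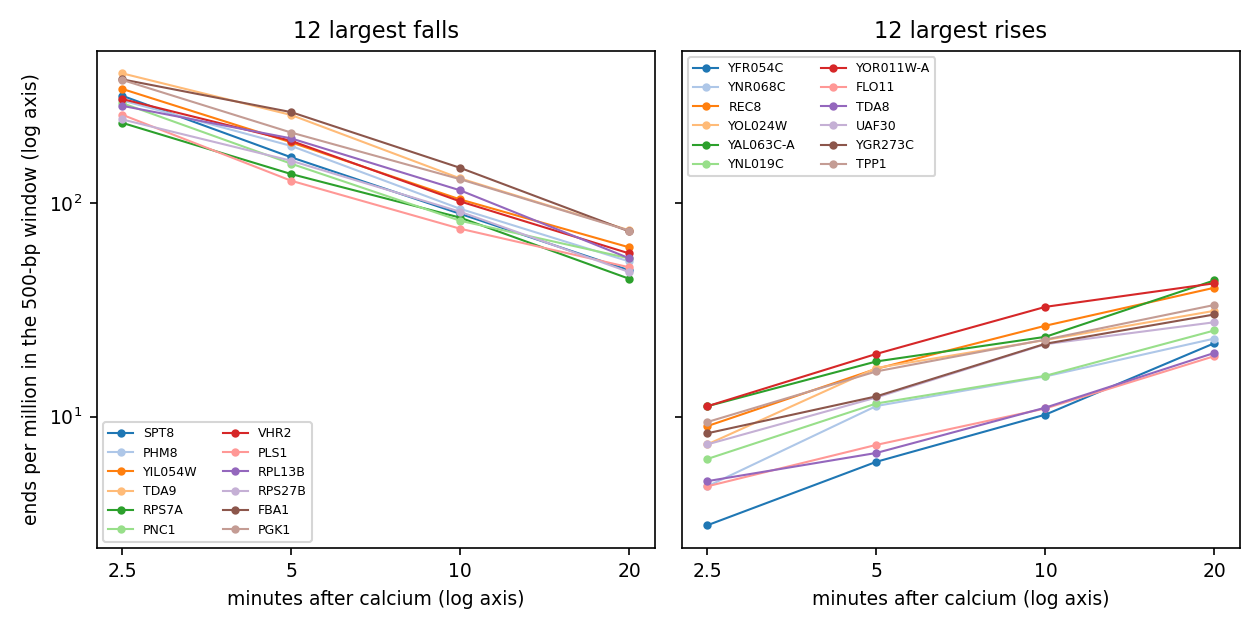
Level of the 12 promoters with the largest falls (left) and the 12 with the largest rises (right) in the 4 Abf1 libraries, as ppm in the 500-bp window on a log axis against minutes after calcium on a log axis, with 1 line per promoter. The falls run from 237 to 404 ppm at 2.5 min to 44.2 to 74.5 ppm at 20 min, and the rises from 3.10 to 11.2 ppm to 19.2 to 43.4 ppm. That the sets stand closest at 20 min follows, given their levels at 2.5 min, from picking promoters that fell or rose at each step.

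The ABF1 promoter itself (YKL112W, chrXI:226070-226569), which shares its window with RAD27, fell from 371 to 219, 129 and 86.1 ppm, from 1073, 661 and 943 ppm at 30 s. Of its 2 consensus matches, the one 314 bp upstream of the start codon had 204 ppm within 50 bp at 2.5 min and 37.9 at 20 min, and the one 52 bp upstream had 19.0 and 11.4 ppm.

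Of 17 promoters known from textbooks as Abf1 targets 15 lost (88.2%, against 30.3% of all promoters) and 0 gained, with a median change of -1.36 against 0.07. Their largest fall was that of PGK1 and the smallest that of QCR8, a subunit gene of respiratory complex III, with 107, 109, 92.8 and 78.1 ppm and a change of -0.44. CAR1, the arginase gene, had 300.5, 186, 116 and 72.7 ppm. RPC40 and RPC19, genes of subunits common to RNA polymerases I and III, fell from 260 to 106 and from 375 to 132 ppm. Of the 19 subunit genes of these polymerases 9 lost (47.4%, against 30.3% of all promoters) and 3 gained (15.8%, against 27.0%). Their median change was -0.28, and 8 of the 9 that lost held the consensus. RET1, the second-largest subunit of RNA polymerase III, fell the most (241, 156, 107 and 81.9 ppm) and RPC53 rose the most (11.3, 16.3, 18.4 and 23.0 ppm).

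Among 33 proteasome subunit genes 19 lost (57.6%, against 30.3% of all promoters) and 2 gained (6.06%, against 27.0%), and 16 held the consensus. PRE7, a catalytic-core subunit gene, fell from 379 to 243, 155 and 103 ppm, and RPT6, an ATPase subunit gene of the regulatory particle, rose from 44.2 to 67.1, 71.4 and 70.5 ppm. Of 79 mitochondrial ribosomal protein genes 32 lost (40.5%, against 30.3% of all) and 12 gained (15.2%, against 27.0%), with a median change of -0.09, and 21 of the 32 held the consensus. MRPS18, which shares its window with MCK1 and has 2 matches, had 458, 286, 173 and 118 ppm, and MRPL37 rose from 31.9 to 68.6 ppm.

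The lists linked to Rap1 lost with few Abf1 matches. Of 20 glycolytic genes 18 lost, against 30.3% of all promoters, and 0 gained, with a median change of -1.79, yet only 3 promoters held the Abf1 consensus. The median of the same 20 was -2.31 in Rap1 and -0.52 in free MNase, where the median promoter had 0.28. CDC19, the pyruvate kinase gene, had 335, 231, 124 and 72.8 ppm. PDC5 had 99.5, 132, 107 and 94.2 ppm, with a change of -0.08. Of 137 cytosolic ribosomal protein genes 87 lost (63.5%, against 30.3% of all promoters) and 1 gained (0.73%, against 27.0%). The 1 that gained was RPS29A (21.1, 31.3, 35.5 and 36.2 ppm), while 13 held the consensus and all 13 lost. Their median change was -0.84 in Abf1, -1.87 in Rap1 and 0.42 in free MNase.

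Meiotic and galactose genes were the last lists. Of 22 meiotic genes 15 gained (68.2%, against 27.0% of all) and 5 lost (22.7%, against 30.3% of all), and the median change was 0.81. Of the 5 that lost, SPR3, RED1, HOP1 and SMK1 held the consensus. ZIP1, a synaptonemal complex gene without it, had the largest fall with 395, 256, 172 and 128 ppm. DMC1, the meiotic recombinase gene, rose from 14.5 to 43.3 ppm. Of 7 galactose pathway genes 3 gained (42.9%, against 27.0% of all promoters) and 0 lost (against 30.3%). GAL4, the activator of the pathway, had 22.6, 26.1, 40.0 and 45.2 ppm, and GAL2, the permease, 119, 120, 111 and 100.6 ppm.

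In coding windows the change was in 1 direction for most genes. Of 5846 coding windows 4101 (70.2%) gained and 223 (3.81%) lost, with a median change of 0.94, and the median steps were 0.32, 0.31 and 0.25. The 625 coding windows with a consensus match inside had a median of 0.70 and lost in 11.2%, against 2.93% of the 5221 without. The largest fall was at YPL062W, with 350, 182, 82.8 and 43.5 ppm, and the largest rise at YAL064W, with 4.31, 11.05, 20.6 and 24.2 ppm. Of 4775 3′ regions 1944 (40.7%) gained and 728 (15.2%) lost. With a consensus match inside, 249 of 282 (88.3%) lost, and without it 10.7% of 4493 did. The downstream region of YHR007C-A fell the most, with 120, 43.3, 24.4 and 7.47 ppm, and that of RSM18, a mitochondrial ribosomal protein gene, rose the most, from 3.37 to 18.4 ppm.

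The median fragment length was 215 bp at 2.5 min and 194 bp at 5 and at 20 min, with that at 10 min in between. The share of fragments between 121 and 180 bp, the size of DNA on a nucleosome, was 24.2%, 30.7%, 29.8% and 35.1%, against 42.7% without calcium, and the share of at most 80 bp stayed between 3.6% and 5.0%. Distinct fragments made up 80.1% to 83.1% of each library.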

How the data were processed

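The authors grew each strain in YPD, permeabilized the cells, added calcium, stopped aliquots at each time, selected small DNA, sequenced both ends of it and aligned the read pairs by Novoalign 2.08.03 to sacCer3, whose chromosome lengths equal those of the reference annotation used here. The deposited files give the chromosome, start and end of each fragment, with identical fragments kept and no count, score or other normalization per gene. Both ends of each fragment were counted per base here and divided by the ends outside the mitochondrial genome and the rDNA. Transposon genes and 17 genes next to rDNA were left out. Promoters needed a mean of 10 ppm over the 4 libraries, and 1 ppm was added before logs. Intervals are exact conditional binomial (Clopper-Pearson, 95%) and cover counting error only, since PCR copies are not independent molecules. The calculation was tested on simulated data. Python 3.11.15, numpy and scipy were used.

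Named promoters are the 12 largest falls and rises that moved the same way at each step, passed the filter and lay over 10 kb from a chromosome end, with windows sharing at least 250 bp taken as 1, plus ABF1 and the largest fall and rise of each gene list. The other genes were chosen after their values were seen. The members, lists and comparisons were chosen with earlier results of these data known. Alternatives changed the pseudocount, filter, window, duplicates, fragment size, scaling, times, fold, motif, ordering libraries and replicates.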

Additional observations from a re-analysis of the deposited data

Results flagged for a closer look

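The promoter share of ends moved in opposite directions in the Abf1 and the free MNase courses between 2.5 and 20 min, by -12.6 and 4.18 percentage points. The coding share also did, by 16.3 and -1.81 points. Each course has 1 library per time and the courses carry different run codes, so the difference between them was not tested.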

How the results depend on the processing

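No paired analysis was possible because each time of the course is 1 library among those analysed here, where only the 30 s digests have replicates. The spread used here is the SD over the 3 replicates at 30 s, and for counts a factor of 1.5. With 2-fold limits 541 promoters gained and 960 lost. For 20 against 5 min 499 gained, the median was -0.60 with the consensus and 0.012 without it, and -0.96 and 0.63 in the highest and lowest decile of the 30 s level. For 10 against 2.5 min the medians were -0.74 with the consensus, -1.03 in the highest and 0.84 in the lowest decile. The highest decile had -1.32 with windows of 250 bp and -1.001 with fragments of at most 120 bp, and with promoters ordered by MNase-X-ChIP-seq the deciles had -0.70 and 0.39. The shorter Abf1 core gave a median of -0.82 in place of the consensus, and -1.54 in place of -1.77 for the log2 change of ends within 50 bp of matches. The coding share rose by 11.3 points with fragments of at most 120 bp. The 3′ share, which rose by 0.27 points, rose by 0.16 with identical fragments counted once and by 1.03 with fragments of at most 120 bp. Without each 30 s replicate in turn the highest decile had -1.47 to -1.46 and the lowest 1.10 to 1.11. Scaling to the median promoter gave 1709 gaining and 1709 losing, and counting identical fragments once gave 1125 and 1955, a shift towards loss of over 10 percentage points among the calls. None of the 240 values of the 24 leading promoters under the alternatives changed sign, and 89 moved by more than the replicate SD. These promoters were picked as the largest changes that moved the same way at each step. With another pseudocount or other times their sign could therefore not change, so the lack of reversals is no separate evidence. With fragments of at most 120 bp the falls were smaller (-1.07 at SPT8, -0.78 at RPL13B, -0.71 at FBA1) and YNL019C had a change of 0.47, under the 1.5-fold limit. With identical fragments counted once PNC1 had -1.60 and TDA9 -1.93, in place of -2.39 and -2.42. With windows of 250 bp VHR2 had -1.06, TDA9 -1.34 and RPS7A -1.44, while YIL054W had -3.30 and PLS1 -2.84. The order of the named falls thus depends on these settings. The cause of these shifts was not tested. The rises rest on few ends at 2.5 min (23 to 83 per promoter), which limits their precision.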

Other observations

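The 106 promoters within 10 kb of a chromosome end, which the rule for named promoters leaves out, gained in 45.3% and lost in 12.3%, with a median change of 0.51 in Abf1 and 0.11 in Rap1. The 492 promoters with the Reb1 letters and neither the Abf1 consensus nor its core gained in 8.54% and lost in 26.2%, against 27.0% and 30.3% of all promoters. The 192 promoters with the Rap1 letters and no Abf1 match had a median change of -0.07 in Abf1 and -0.50 in Rap1.

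Outside the windows, the rDNA held 12.5%, 14.0%, 14.1% and 12.3% of all mapped ends at 2.5, 5, 10 and 20 min in Abf1. It went from 30.9% to 22.0% in Rap1 and from 22.2% to 32.2% in free MNase between 2.5 and 20 min. The mitochondrial genome held 0.36% to 0.19% of the ends in the Abf1 course and 8.32% in Abf1 without calcium.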
